A study of Mus musculus with 4 samples.

Results

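RGS (regulator of G-protein signalling) genes were examined in naive CD4+ T cells and in cells 3 h into culture towards induced Treg (iTreg) cells. The members were the 8 genes Rgs1, Rgs2, Rgs3, Rgs10, Rgs14, Rgs16, Rgs18 and Rgs19, chosen by name, of 32562 genes with a name on the array. All 17 probes that carry these names were taken. The choice of members was made with earlier results of these data known. RGS proteins share a domain that speeds GTP hydrolysis by G-protein alpha subunits, and so shorten the signal of G-protein-coupled receptors. In lymphocytes those receptors include chemokine receptors and the sphingosine 1-phosphate receptors that guide cells out of lymphoid tissue.

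Transcripts were measured on 4 single-colour Agilent arrays, 1 for each group, all on 1 slide. The groups were naive T cells of both genotypes, called WT naive T or Nr4a-TKO naive T, and the cultured cells, named WT iTreg and Nr4a-TKO iTreg below. Nr4a-TKO cells lack the orphan nuclear receptors Nr4a1, Nr4a2 and Nr4a3. The comparisons ask which genes change early in iTreg culture and which depend on these factors.

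All cells came from bone marrow chimeras, and naive cells were sorted from spleen and lymph nodes as CD4+, low for CD25 and CD44, high for CD62L and negative for Foxp3. The study's methods list no CD25 gate for naive cells sorted from these chimeras. Nr4a-TKO cells developed beside congenic WT cells in mixed chimeras and carried a Foxp3 reporter. WT cells came from chimeras that received WT marrow only, so that genotype and type of chimera cannot be told apart. The Cre line that deletes the floxed alleles in these cells is not given in the sources used here. The iTreg culture held plate-bound anti-CD3 at 2 μg/ml, anti-CD28 at 0.5 μg/ml, IL-2 at 10 ng/ml, TGF-β1 at 0.2 or 0.5 ng/ml, and antibodies that block IFN-γ and IL-4. Naive cells were not cultured, so that culture and stimulation cannot be told apart.

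Levels are given as log2 normalized intensity, on which a step of 1 is a 2-fold change. With 1 array per group no test was run, and no value carries a replicate error. The only error measured was that of repeated spots of 300 probes, for which the median SD of a difference between 2 arrays was 0.18 on the log2 scale. This SD leaves out the spread between animals, sorts and cultures. It comes mostly from bright probes, since 254 to 256 of them per array read above 9. For the few under 5 the median SD within 1 array was 0.16 to 0.19, beside 0.11 to 0.13 over all 300. A probe that the scanner software did not find well above background on 1 of 2 arrays gives a bound, written as "at least". Levels were compared between arrays and not between probes.

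The arrays carried 64.9% to 67.6% of probes well above background and no saturated spot. All 5 CD4 T cell markers with a probe (Cd4, Cd3d, Cd3e, Cd28 and Lck) were well above background on every array. Each of the 6 activation markers rose by more than 2-fold in culture in both genotypes, and 4 of 5 naive T cell markers in WT and 5 of 5 in Nr4a-TKO fell by more than 2-fold. The check of the deleted genes went against the labels in part. In naive T the Nr4a1 probe was 1.34 higher and the Nr4a2 probes 0.77 and 0.20 higher on the array labelled Nr4a-TKO, while the Nr4a3 probes differed by 0.08, -0.38 and 0.02. At 3 h the Nr4a1 probe was 0.49 higher and both Nr4a2 probes were 1.36 and 1.37 higher on the array labelled Nr4a-TKO. Of 3 Nr4a3 probes, 2 were lower there at 3 h, by differences of -1.86 and -1.47, and the third differed by 0.18. Whether these probes lie in the deleted parts is not given in the sources used here, so every genotype difference below is a difference between arrays labelled Nr4a-TKO and WT.

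Rgs16, a small RGS protein that acts on Gi and Gq subunits, had the largest change of the family. Its promoter is shown because it is the member with the largest rise, beside that of Rgs2, which fell. Both are 250 bases upstream of the transcription start, 5′ to 3′ on the gene's strand, taken from RefSeq on GRCm38.p6, at chr1:153740103-153740352 on the plus strand for Rgs16 and at chr1:144004150-144004399 on the minus strand for Rgs2. Capitals mark the Ets letters AGGAAG or their reverse complement.
Rgs16: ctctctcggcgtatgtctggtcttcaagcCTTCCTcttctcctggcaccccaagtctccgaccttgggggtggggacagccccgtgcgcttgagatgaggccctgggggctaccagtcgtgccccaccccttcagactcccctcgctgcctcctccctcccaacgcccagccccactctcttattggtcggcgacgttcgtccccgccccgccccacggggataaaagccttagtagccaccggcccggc
Rgs2: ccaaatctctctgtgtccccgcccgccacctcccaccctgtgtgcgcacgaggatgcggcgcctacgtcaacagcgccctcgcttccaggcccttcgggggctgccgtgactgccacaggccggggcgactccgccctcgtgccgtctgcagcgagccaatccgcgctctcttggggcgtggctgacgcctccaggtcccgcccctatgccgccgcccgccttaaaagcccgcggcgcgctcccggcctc

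Promoter entries were found for 5 of the 8 members, with 8 promoters in all. Rgs1, Rgs14 and Rgs18 had no entry. Both strands were searched for AAAGGTCA (NBRE, the monomer element of Nr4a factors), TGACGTCA (CRE), TGANTCA (AP-1), AGGAAG (Ets) and TGGAAA (NFAT). None of the 8 promoters held the NBRE, CRE, AP-1 or NFAT letters in these 250 bases, against 1.34%, 1.55%, 6.75% and 18.6% of all 32851 promoters. The study writes its Nr4a motif as AAA(T/G)GTCA, and the form with T, AAATGTCA, was not among the letters counted. That form does stand in an Rgs3 promoter, and its share over all promoters was not computed. The Ets letters occurred in 29.5% of all promoters. They stood once in the Rgs16 promoter, 221 to 216 bases before the start, and also in both Rgs3 and all 3 Rgs19 promoters, but not in those of Rgs2 and Rgs10. Of the Rgs19 promoters, 2 overlap and hold the same match. These letters were therefore in the promoter of the member that rose most and in those of Rgs19, which hardly moved. A match of letters is a description of the sequence and shows no binding.

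In WT cells, 2 of 7 measured members rose by more than 2-fold in iTreg culture, Rgs16 and Rgs1, and 2 fell, Rgs14 and Rgs2. Over all 23248 genes measured, 8.48% rose and 8.46% fell past the same fold. In Nr4a-TKO cells the same 4 members passed 2-fold in the same directions, while 7.73% of 23738 genes rose and 8.05% fell. The median change of the 7 measured members was 0.01 in WT and 0.15 in Nr4a-TKO, beside medians of -0.05 and -0.02 over all genes. The 7 measured members thus split, moving up and down about a median near 0. They are a part of the RGS genes, chosen with earlier results of these data known. Their shares beside those of all genes are therefore a description. Rgs18 was not measured, since its probe was well above background on no array.

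**Figure D1:**
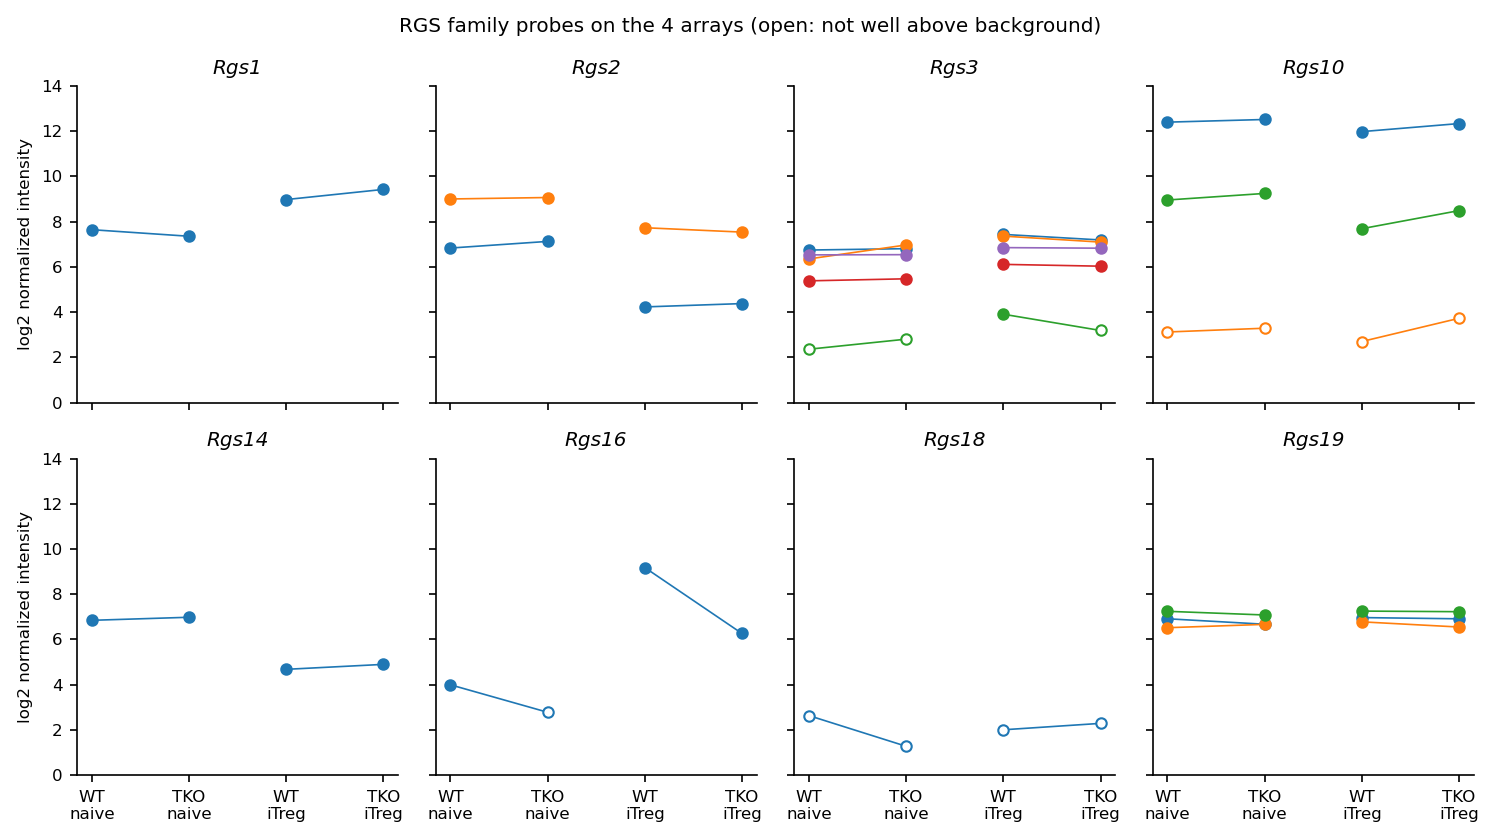
Log2 normalized intensity of every probe of the 8 RGS genes on the 4 arrays, 1 panel per gene and 1 colour per probe. Each point is 1 array, open points were not well above background, and lines join WT to Nr4a-TKO at the same stage. Rgs16 rises from 3.99 to 9.18 in WT and reaches 6.26 in Nr4a-TKO.

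Rgs16 has 1 probe, at chr1:155592497-155592556 on the plus strand of mm9, the build of the array files. Its log2 level was 3.99 in WT naive T, 9.18 in WT iTreg and 6.26 in Nr4a-TKO iTreg. In Nr4a-TKO naive T it was 2.78, which was not well above background. As processed intensity before normalization across arrays, the same spot read 12.4 in WT naive T, 2.74 in Nr4a-TKO naive T, 701 in WT iTreg and 75.7 in Nr4a-TKO iTreg. Both cultured arrays were above both naive arrays, and within each stage the array labelled Nr4a-TKO was the lower.

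The WT rise of Rgs16 was 5.19 on the log2 scale, a 36.4-fold change and rank 4 from the top of 23248 genes. In Nr4a-TKO it rose by at least 2.89, or at least 7.43-fold, which as a bound ranked 67 of 23738. The rise in Nr4a-TKO fell short of that in WT by no more than 2.29 on the log2 scale, and since it is a bound, the 2 rises cannot be put in order. Their size depended on how background was treated. With a normexp offset of 50 the WT rise was 9.54-fold and the Nr4a-TKO rise at least 2.10-fold, and the largest WT value was 49.9-fold, in the deposited values.

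At 3 h, Rgs16 was the only one of 7 measured members past 2-fold between genotypes, and no member was past 2-fold higher. It differed by -2.92 on the log2 scale, 7.55-fold lower in Nr4a-TKO iTreg, and ranked 39 from the bottom of 23520 genes. Over all genes, 1.73% were higher and 1.94% lower past 2-fold at this stage. Under the other ways of processing the fold ran from 4.96 with an offset of 50 to 8.83 with scaling to the 75th percentile. In naive T cells Rgs16 was at least 1.54-fold lower in Nr4a-TKO, and no member passed 2-fold in either direction, beside 1.94% of 23132 genes higher and 1.67% lower. With an offset of 50 this naive bound for Rgs16 was only 1.09-fold.

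Markers of other cell types also differed between the genotypes. The Treg markers Foxp3 and Ikzf2 were both more than 2-fold lower on the Nr4a-TKO naive array, with differences of -1.30 and -1.37, and the summed linear level of these 2 genes was 295 in WT and 118 in Nr4a-TKO. At 3 h the sums were 247 and 142, with Foxp3 lower by a difference of -1.36 and Ikzf2 0.16 higher. The summed level of 7 B cell markers was 1202 in WT and 1884 in Nr4a-TKO naive T, and 939 and 1868 at 3 h. Single B cell markers differed by -0.55 (Cd79b) to 1.62 (H2-Aa) in naive T, with 1 of 7 past 2-fold higher, and by 0.06 to 1.37 at 3 h, with 3 of 7 past 2-fold higher. Among the measured myeloid markers, 1 was more than 2-fold lower on the Nr4a-TKO naive array, with a difference of -2.69. None was past 2-fold higher there, the highest difference being 0.16. At 3 h the myeloid markers differed by -0.46 to 0.80, with none past 2-fold. The sort for CD4+ Foxp3- cells was set to leave out B cells and Foxp3+ Treg cells, but its purity is not given in the sources used here. In bulk samples, fewer cells of a type and less RNA per cell cannot be told apart, and the part of these markers in the Rgs differences was not tested.

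Genes whose pattern over the 4 arrays was nearest to that of Rgs16 were sought among 15690 genes well above background on all arrays. The measure was the Euclidean distance between log2 levels centred on each gene's own mean, with 0 for the same shape. The nearest were Tnfrsf9, the costimulatory receptor 4-1BB, at a distance of 1.37, Sult5a1, a sulfotransferase, at 1.85, and Dusp5, a phosphatase of ERK kinases, at 2.05. Tnfrsf9 read 6.02 in WT naive T, 4.16 in Nr4a-TKO naive T, 10.02 in WT iTreg and 6.42 in Nr4a-TKO iTreg. With 4 arrays such likeness is a description, and the Rgs16 value in Nr4a-TKO naive T that entered it was not well above background.

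Rgs1, which dampens chemokine receptor signals in B and T cells, was the second member that rose. Its single probe, at chr1:146091962-146092021 on the minus strand of mm9, read 7.64 in WT naive T, 7.35 in Nr4a-TKO naive T, 8.98 in WT iTreg and 9.43 in Nr4a-TKO iTreg. Both cultured arrays were above both naive arrays, with the Nr4a-TKO array the lower of the naive pair and the higher of the cultured pair.

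The rise of Rgs1 was 2.52-fold in WT and 4.21-fold in Nr4a-TKO, or 1.33 and 2.07 on the log2 scale. Its rank from the top was 1172 of 23248 genes in WT and 270 of 23738 in Nr4a-TKO. The log2 rise was 0.74 larger in Nr4a-TKO, which could not be tested with 1 array per group. Between genotypes Rgs1 differed by -0.29 in naive T and by 0.45 at 3 h, both under 2-fold. The median difference of the 7 B cell markers was 0.71 in naive T and 0.85 at 3 h, with Cd79b at -0.55 in naive T, and their part in the Rgs1 values was not tested.

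**Figure D2:**
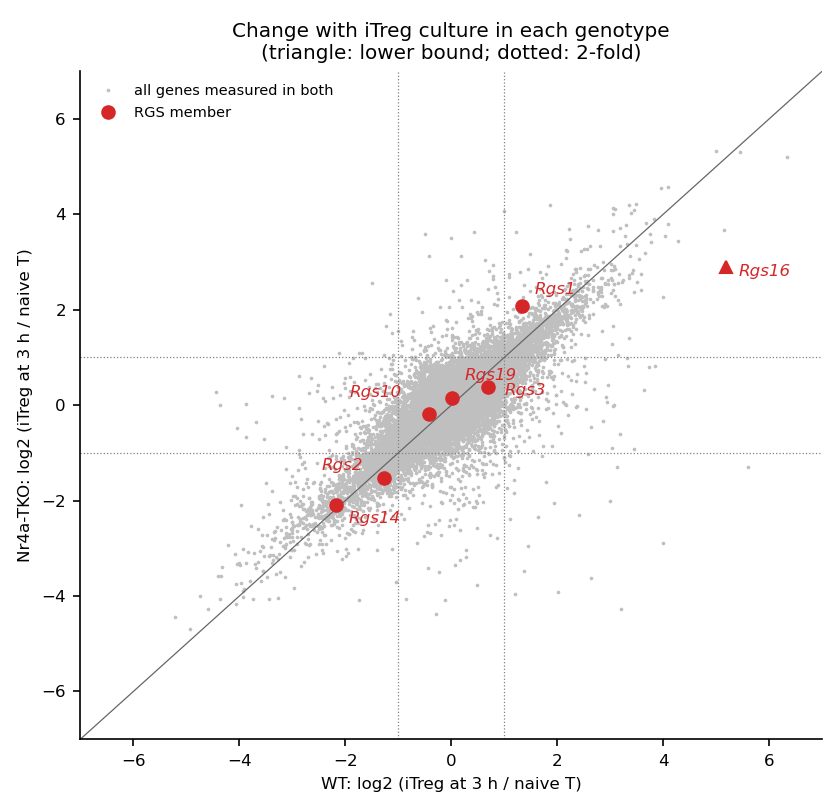
Log2 change over 3 h of iTreg culture in Nr4a-TKO (vertical axis) against WT (horizontal axis) for the 22263 genes measured in both genotypes (grey) and the 7 measured RGS members (red). The solid line marks equal change, dotted lines mark 2-fold, and the triangle is a lower bound. Rgs16 (5.19 in WT) is plotted at its bound below the line of equal change, Rgs1 lies above the line, and Rgs2 and Rgs14 lie near it.

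Rgs14 fell most. Its protein carries Ras-binding domains and a GoLoco motif that binds inactive Gi subunits in addition to the RGS domain. Its probe, at chr13:55485762-55485821 on the plus strand of mm9, read 6.84 in WT naive T, 6.98 in Nr4a-TKO naive T, 4.67 in WT iTreg and 4.89 in Nr4a-TKO iTreg. Both cultured arrays were below both naive arrays. The genotypes differed by 0.14 in naive T, within the SD of repeated spots, and by 0.22 at 3 h. At 3 h both levels were under 5, where repeated spots spread more. The fall was 4.49-fold in WT and 4.24-fold in Nr4a-TKO, with ranks from the bottom of 403 among 23248 genes and 413 among 23738. With a normexp offset of 50 it was 2.18-fold and 2.21-fold, and with scaling to the 75th percentile 6.04-fold and 5.11-fold.

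Of the genes well above background on all arrays, those nearest to Rgs14 in pattern were Klhdc1, at a distance of 0.05, Arhgap4, at 0.07, and Lgals4, a galectin, at 0.09. Klhdc1 read 7.65, 7.82, 5.55 and 5.74 on the WT and Nr4a-TKO naive arrays and the WT and Nr4a-TKO iTreg arrays. Its cultured arrays were both lower and the genotypes lay close together, which follows from its choice as the gene nearest to Rgs14.

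Rgs2, which acts mainly on Gq subunits, fell on both of its probes. The brighter probe, at chr1:145848830-145848889 on the minus strand of mm9, read 9.0 in WT naive T, 9.07 in Nr4a-TKO naive T, 7.73 in WT iTreg and 7.54 in Nr4a-TKO iTreg. The other probe, designed on a different transcript and placed at chr1:145849832-145849891, read 6.83, 7.13, 4.23 and 4.38 in the same order. On each probe both cultured arrays lay below both naive arrays.

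The brighter Rgs2 probe fell 2.41-fold in WT and 2.89-fold in Nr4a-TKO. The other fell 6.08-fold and 6.73-fold, so that both probes gave the same direction with unequal size. Taken as the mean over both probes, the falls were 3.83-fold and 4.41-fold. No genotype difference of either probe reached 2-fold, the largest being 0.29 on the log2 scale in naive T.

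Rgs2 and Rgs1 moved in opposite directions although they lie close together. In the RefSeq gene order on GRCm38.p6, Rgs2, Rgs13, Rgs1, Rgs21 and Rgs18 are consecutive protein-coding genes of chromosome 1. Of these 5, Rgs2 fell and Rgs1 rose in both genotypes, and no array gave Rgs13, Rgs21 or Rgs18 a signal well above background. Rgs16 lies elsewhere on the same chromosome, next to Rgs8. The Rgs8 probe read 6.60 in WT naive T, 6.58 in Nr4a-TKO naive T, 6.48 in WT iTreg and 6.60 in Nr4a-TKO iTreg, which are differences within the SD of repeated spots.

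Rgs3, which acts on Gi and Gq subunits and is made in several isoforms, has 5 probes, of which 4 were well above background on all arrays. The brightest read 6.74 in WT naive T, 6.80 in Nr4a-TKO naive T, 7.44 in WT iTreg and 7.19 in Nr4a-TKO iTreg. It rose 1.62-fold in WT and 1.31-fold in Nr4a-TKO, under the 2-fold threshold. The changes of the 4 probes ran from 0.32 to 1.01 in WT and from 0.13 to 0.56 in Nr4a-TKO.

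One Rgs3 probe stood apart from the other 3. It read 6.35 in WT naive T, 6.97 in Nr4a-TKO naive T, 7.36 in WT iTreg and 7.10 in Nr4a-TKO iTreg, so that it was 0.62 higher in Nr4a-TKO naive T and rose 2.01-fold in WT. It targets the same transcript as the brightest probe, which differed by 0.06 between genotypes in naive T. The fifth probe, on a separate transcript, was well above background in WT iTreg only, at 3.91.

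Rgs10, a short RGS protein of leukocytes that acts on Gi subunits, fell slightly on its brightest probe. That probe read 12.40 in WT naive T, 12.52 in Nr4a-TKO naive T, 11.98 in WT iTreg and 12.34 in Nr4a-TKO iTreg. The change was -0.42 in WT and -0.18 in Nr4a-TKO. The WT iTreg array was the lowest of the 4, and the other 3 lay within 0.18 of each other.

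A second Rgs10 probe on the same transcript read 8.96, 9.25, 7.69 and 8.49 in the same order. Its falls were larger, at 2.41-fold in WT and 1.69-fold in Nr4a-TKO, so that the probes did not agree on whether Rgs10 passed 2-fold in WT. Both probes were higher in Nr4a-TKO than in WT at 3 h, by 0.36 and 0.80, and in naive T by 0.12 and 0.29. The third probe, on another transcript, was well above background on no array.

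Rgs19, first described as a protein that interacts with Gi subunits, hardly changed. Its brightest probe read 7.24 in WT naive T, 7.08 in Nr4a-TKO naive T, 7.25 in WT iTreg and 7.22 in Nr4a-TKO iTreg. The changes in culture over its 3 probes ran from 0.01 to 0.26 in WT and from -0.12 to 0.24 in Nr4a-TKO. The genotype differences ran from -0.24 to 0.15 in naive T and from -0.23 to -0.03 at 3 h, so that the naive values differed in sign between probes.

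Rgs18, known from platelets and megakaryocytes, was well above background on no array, with log2 readings of 2.63 in WT naive T, 1.27 in Nr4a-TKO naive T, 2.00 in WT iTreg and 2.28 in Nr4a-TKO iTreg. These readings have no order. Of 4 platelet and megakaryocyte markers, Gp9 and Pf4 were likewise well above background on no array, Ppbp only in Nr4a-TKO iTreg, at 4.02, and Itga2b on all 4, at 3.89 to 4.91.

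**Figure D3:**
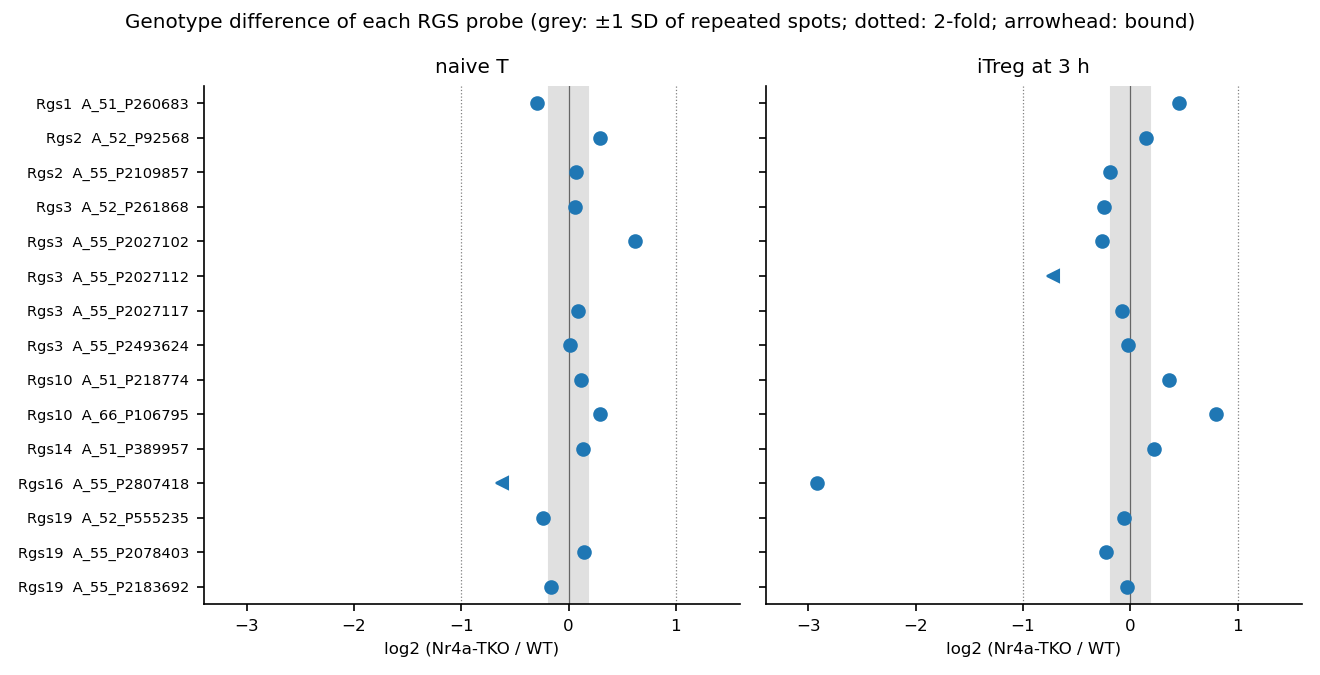
Log2 difference between Nr4a-TKO and WT for the 15 RGS probes that were well above background on at least 1 array, where both genotypes could be compared, in naive T (left) and iTreg at 3 h (right). The grey band is 1 SD of repeated spots (0.18), taken from mostly bright probes, on either side of 0. Dotted lines mark 2-fold, and arrowheads are bounds. Rgs16 at 3 h (-2.92) is the only point past 2-fold.

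Of 13 further RGS genes with a probe, 9 were measured in each comparison. In WT culture none rose and 2 fell past 2-fold, Rgs12, a relative of Rgs14, by 2.52-fold and Rgs5 by at least 2.38-fold. In Nr4a-TKO none of the 9 measured passed 2-fold, with changes from -0.74 to 0.40. Rgs5 was not measured in Nr4a-TKO culture or between genotypes at 3 h, and Rgs7 stood in its place among the 9. Between genotypes, Rgs5 was at least 2.49-fold lower in Nr4a-TKO naive T and none of the other relatives measured passed 2-fold. At 3 h none did, with differences from -0.20 to 0.34. In WT the relatives had a median change of -0.14, beside 0.01 for the members. With a normexp offset of 50, the Rgs12 fall was 1.39-fold and the bound for Rgs5 1.25-fold, both under 2-fold, and the bound for the naive Rgs5 difference was 1.25-fold.

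Most measured G-protein subunits stayed within 2-fold in culture. The alpha subunits Gnai1, Gnaq and Gnaz were not measured, since the brightest probe of each was well above background on no array. Of 9 measured alpha subunits, Gnai2, the main Gi subunit of lymphocytes, was the only one past 2-fold, and it fell 3.82-fold in WT and 2.85-fold in Nr4a-TKO. It read 9.77 in WT naive T, 9.72 in Nr4a-TKO naive T, 7.83 in WT iTreg and 8.21 in Nr4a-TKO iTreg. Of 14 beta and gamma subunits, 1 fell in both genotypes, Gng2, by 8.54-fold in WT and 6.80-fold in Nr4a-TKO. In WT 2 rose, Gnb3 by 3.56-fold and Gng12 by 3.08-fold, and none rose past 2-fold in Nr4a-TKO. At 3 h Gnb3 was 3.42-fold lower in Nr4a-TKO, at 4.0 against 5.78. These dim genes were sensitive to background treatment, and with a normexp offset of 50 the WT changes of Gnb3 and Gng12 were 0.68 and 0.71 and the Gnb3 genotype difference -0.67, all under 2-fold.

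Receptor kinases and arrestins, which switch off receptors by a route other than that of RGS proteins, fell in most cases. Of 7 measured, 5 fell past 2-fold and none rose past it in each genotype, with a median change of -1.51 in WT and -1.24 in Nr4a-TKO. Over all genes measured, 8.46% fell and 8.48% rose in WT, and 8.05% fell and 7.73% rose in Nr4a-TKO. This list was chosen with earlier results of these data known. Arrb1, a beta-arrestin, fell 4.80-fold in WT and 7.12-fold in Nr4a-TKO. Grk2 fell 2.85-fold and 2.77-fold, and Grk6 2.30-fold and 3.46-fold. Grk3 and Grk5 were not counted past 2-fold, with WT changes of -0.19 and, as a bound, -0.42. Grk4 fell at least 7.20-fold in WT and at least 2.11-fold in Nr4a-TKO, and it was 3.85-fold lower in Nr4a-TKO naive T, at 4.33 against 6.28. Its 2 other probes were well above background on no array, and with a normexp offset of 50 its naive difference was -0.86. None of the 6 measured at 3 h differed past 2-fold between genotypes. With a normexp offset of 50, 3 in place of 5 fell past 2-fold in Nr4a-TKO, and Grk2 then changed by -0.93 there.

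Effectors downstream of G proteins also fell more often than they rose. In WT, 6 of 14 fell and 1 rose past 2-fold, with a median of -0.56. In Nr4a-TKO, 7 fell and none rose, with a median of -0.76. Over all genes measured, 8.46% fell in WT and 8.05% in Nr4a-TKO. The effector list, too, was chosen with earlier results of these data known. Adcy7, an adenylyl cyclase, fell 7.83-fold in WT and 5.80-fold in Nr4a-TKO, and Arhgef1, an exchange factor coupled to G12 and G13 subunits, fell 3.83-fold and 4.21-fold. Pik3r5, the adaptor of the G-protein-driven PI3-kinase gamma, fell 4.51-fold and 3.51-fold. With a normexp offset of 50, 4 in place of 7 fell past 2-fold in Nr4a-TKO.

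The effector that rose was Plcb1, a phospholipase C driven by Gq subunits. It was not well above background on either naive array and read 7.17 in WT iTreg and 4.23 in Nr4a-TKO iTreg. The rise was at least 13.3-fold in WT and at least 1.73-fold in Nr4a-TKO. At 3 h it was 7.72-fold lower in Nr4a-TKO, beside 7.55-fold for Rgs16.

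Of 13 measured chemoattractant receptors, 2 rose and 3 fell past 2-fold in WT, and 4 rose and 4 fell in Nr4a-TKO. S1pr1, the sphingosine 1-phosphate receptor for egress, read 10.09 in WT naive T, 10.03 in Nr4a-TKO naive T, 6.03 in WT iTreg and 6.29 in Nr4a-TKO iTreg, falls of 16.7-fold and 13.4-fold. S1pr4 fell 8.19-fold and 3.94-fold. Ccr8, a chemokine receptor of Th2 and Treg cells, rose 15.5-fold in WT and 23.5-fold in Nr4a-TKO. At 3 h Cxcr3 was the only one past 2-fold between genotypes, 2.47-fold higher in Nr4a-TKO at 5.90 against 4.60, but this difference was 0.93 without background correction and 0.56 with a normexp offset of 50. In naive T the only one past 2-fold was Ccr4, which also rose past 2-fold in culture in both genotypes. It was lower in Nr4a-TKO naive T, with a bound of -1.68, which was -0.46 with a normexp offset of 50.

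Among the other receptors, 2 of 11 measured rose past 2-fold in WT, the prostaglandin receptor Ptger2 by 3.21-fold and the lysophosphatidylserine receptor Gpr174 by 2.02-fold. In Nr4a-TKO, 1 of 10 rose, Ptger2 by 6.97-fold, and 1 fell, Lpar6, by 2.00-fold. At 3 h Gpr174 was 3.36-fold and the proton-sensing receptor Gpr65 2.31-fold lower in Nr4a-TKO. With a normexp offset of 50, the WT rises of Ptger2 and Gpr174 were 0.82 and 0.70, the change of Lpar6 -0.68 and the Gpr65 difference -0.63, none of them past 2-fold.

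**Figure D4:**
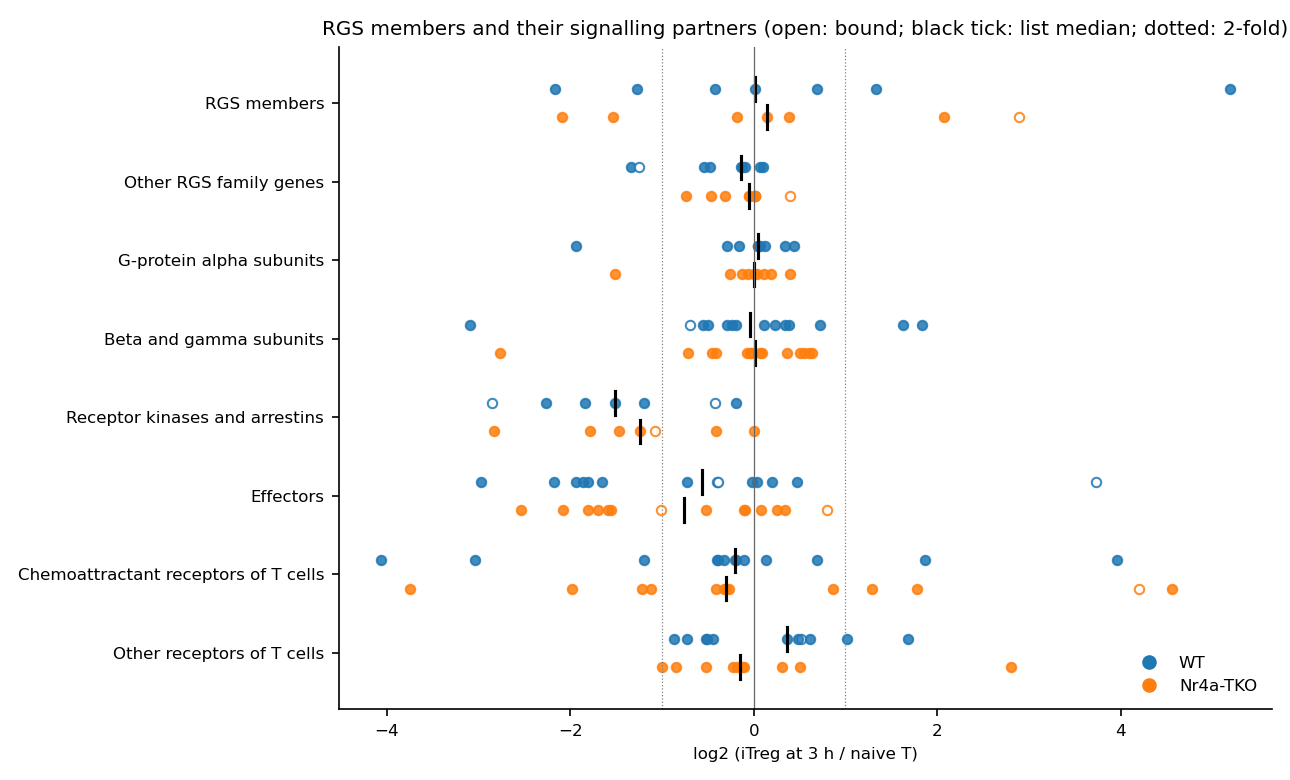
Log2 change over 3 h of iTreg culture for the 7 measured RGS members and for 7 lists of other genes of G-protein signalling, in WT (blue) and Nr4a-TKO (orange). Each point is 1 gene, open points are bounds, black ticks are list medians and dotted lines mark 2-fold. Receptor kinases and arrestins lie mostly to the left (median -1.51 in WT), while the RGS members spread to both sides.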

How the data were processed

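Transcripts of 4 samples, 1 per group, were measured on single-colour Agilent mouse arrays. The authors deposited, for every array, the scanner output of Agilent Feature Extraction 11.5.1.1, named in the submitters' processing notes, with the mean intensity and local background of each spot, a processed intensity and detection flags. Their methods name RMA in GeneSpring. A series-wide file of log2 values, deposited by the authors too, was found to equal log2 of the processed intensity minus a constant per array, close to its 75th percentile.

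From the spot intensities, limma 3.58.1 in R 4.3.3 with the package data.table (version 1.17.8) was used for normexp background correction with an offset of 0, quantile normalization over the 4 arrays and log2, and spots of a probe were averaged. Control spots and 115 to 160 outlier-flagged spots per array were left out. Later steps used Python 3.11.15, pandas 2.3.3, numpy 2.4.6 and matplotlib 3.10.9, and the counting was tested on simulated data. Of 56605 probes, 41700 carry a current symbol, 1518 were named by transcript and 520 by synonym through the RefSeq table of GRCm38.p6, while 8036 kept the file's name and 4831 had none.

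Where a gene had several probes, the one with the highest mean was used. A probe well above background on neither of the 2 arrays compared gave no difference. One dim on 1 array was raised there to the lowest level of a probe well above background, 3.07 to 3.45 on the log2 scale, and gave a bound. Called means past 2-fold. The precision is limited by 1 array per group, so no test was run.

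The members and all gene lists were chosen with earlier results of these data known. From the lists, up to 3 rises and 3 falls past 2-fold per comparison were open to naming, and for likeness the 3 nearest genes. Alternatives were the scaling, offset, background, deposited values, mean of probes, filters, and thresholds of 1.5-fold and 3-fold. The position of probes in exons was not analysed here.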

Additional observations from a re-analysis of the deposited data

How the results depend on the processing

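The counts of members past 2-fold kept their value or stayed within 1.5 times of it under 33 of 36 alternatives. In WT culture, 2 members in place of 4 passed a 3-fold threshold, Rgs16 up and Rgs14 down. Between the naive arrays, 2 members in place of 0 were lower without a filter on dim probes, Rgs16 and Rgs18, and 1, Rgs16, was lower at a 1.5-fold threshold. These follow from the thresholds and from counting probes below background. Requiring both arrays well above background removed Rgs16 from the Nr4a-TKO change and from the naive comparison. Of 194 recomputed member differences, 158 moved by less than the SD of repeated spots, 36 moved by more and none of those past 2-fold changed sign. A normexp offset of 50 gave the smallest values for Rgs16, Rgs14 and Rgs1. Of 302 differences of named genes of the other lists, 136 moved by more than that SD and none reversed. The low signal of Rgs16 in naive T limits the size of its rise in both genotypes. No paired analysis was possible because each group had 1 array.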
